A study of Macaca mulatta with 136 samples.

Results

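The collagen genes were described across the neural retina and the RPE/choroid (the retinal pigment epithelium with the vascular layer beneath it) of the rhesus macaque. They are the 41 rows, of 19422 gene rows in all, whose symbol has the form COL, a type number, A and a chain number. RNA came from 2 mm punches of the postmortem eyes of 2 adult animals, RM03 and RM04, with no treatment or engineered allele in any group. Poly-A selected RNA was sequenced from 8 groups of 4 libraries each, the retina and the RPE/choroid at the fovea (the macular and foveal punch), perimacula, nasal location and periphery. Replicates 1 and 2 are the OD and OS eye of RM03, and replicates 3 and 4 are the OD and OS eye of RM04, so that the 4 libraries of a group stand for 2 animals. Each punch held every cell type of its layer, and in such bulk samples fewer cells of a type and less RNA per cell cannot be told apart.

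Collagens are secreted or membrane-bound proteins built from alpha chains that wind around each other into a helix, with each chain made by its own gene. Fibrillar collagens (types I, II, III, V, XI and XXVII) pack into the load-bearing fibrils of sclera, vessel wall, vitreous and cartilage. Type IV collagen forms the sheet-like network of basement membranes, which in the eye include the inner limiting membrane of the retina, the walls of retinal vessels and the outer layers of Bruch's membrane under the RPE. The remaining types coat fibrils (IX, XII, XIV, XVI, XIX, XX, XXI, XXII), form beaded filaments (VI), hexagonal sheets (VIII) or anchoring fibrils (VII), carry heparan or chondroitin sulfate (XV, XVIII) or span the cell membrane (XIII, XVII, XXIII, XXV). By these classes 9 rows were fibrillar, 6 basement membrane and 26 other collagens. Of 45 collagen symbols looked for, 4 (COL5A1, COL24A1, COL6A4 and COL10A1) had no row under that symbol. The row of COL5A1 carries another name in the files and so is not among the 41.

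Levels are given in CPM, the estimated counts of a library scaled to a common total with trimmed means of M values (TMM). CPM is not corrected for gene length, so the values of different genes are not compared with each other. Library totals ran from 42448891 to 78574034 estimated counts. The peripheral libraries were sequenced on 1 flow cell of their own and the others on 2 shared flow cells, so that the periphery and its flow cell cannot be told apart; the nasal location, on the shared flow cells, was therefore compared as well. Rod and RPE markers followed the labels. The 9 rod markers summed to 4013 to 4610.3 CPM in foveal and 23892 to 28042 CPM in peripheral retina. Over the 16 RPE/choroid libraries they summed to 50.1 to 924 CPM. The 6 RPE markers with a row summed to 8288 to 23475 CPM in RPE/choroid, against 218 to 1216 CPM in retina. The 6 markers of Mueller glia, a cell type of the retina, did not follow the labels. They summed to 1607 to 1825 CPM in foveal retina and 4882 to 6947 CPM in foveal RPE/choroid. At the periphery the tissues overlapped, at 4972 to 6966 and 4173 to 7063 CPM. The list is RLBP1, GLUL, SLC1A3, CRYM, DKK3 and VIM, and the paper counts VIM among known RPE-specific genes. The reason was not tested. Schwann cell markers (6 of 7 with a row) summed to 238 to 348 CPM in 10 RPE/choroid libraries, which include all foveal and nasal ones, and to more in the other 6: 12598 CPM in periphery replicate 2, 7769 CPM in perimacula replicate 1, 4298 CPM in periphery replicate 1, 1955 CPM in perimacula replicate 4, and 545 and 985 CPM in periphery replicates 3 and 4. Counts that rest on RPE/choroid were therefore also taken without the 2 highest of these libraries and without the 4 highest, which leaves only RM04 at the periphery and 1 library of each animal at the perimacula.

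Collagen transcripts were several times more abundant in RPE/choroid than in retina. Summed over the 41 rows, the retina held 457 ± 18.8 CPM at the fovea (SD, n = 4) and 1287 ± 119 CPM at the periphery, while RPE/choroid held 4886 ± 481 and 5450.5 ± 602 CPM. In the retina the 26 other collagens summed to 203, 215, 244 and 212 CPM at the fovea of replicates 1 to 4 and to 776, 776, 842 and 969 CPM at the periphery, and lay between, at 374 ± 73.8 and 533 ± 43.8 CPM, in the perimacular and nasal punches. The foveal and peripheral libraries did not overlap. Fibrillar collagens of the retina summed to 66.9, 56.9, 78.4 and 77.6 CPM at the fovea and 159.9, 282, 298 and 293 CPM at the periphery, again without overlap. The basement membrane sum was 169 ± 35.7 CPM at the fovea and 187 ± 19.5 CPM at the periphery, and the libraries overlapped. Its share of the collagen sum went from 36.8% at the fovea to 14.8% at the periphery.

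In RPE/choroid the classes moved in another way. Fibrillar collagens summed to 1809, 2009.8, 1577 and 1397 CPM at the fovea and 2059, 2928, 2586 and 2472 CPM at the periphery, so that these groups did not overlap. They summed to 2376, 2652, 1910 and 1716 CPM at the nasal location and 1779, 1686, 1474 and 2145 CPM at the perimacula. Both of the latter groups overlapped the fovea and the periphery. Basement membrane collagens summed to 928, 945, 845 and 873 CPM at the fovea and to 605, 995, 534 and 478 CPM at the periphery, where replicate 2 was higher than every foveal library and the other peripheral libraries were lower. The other collagens stayed at 2289 ± 181 CPM and 2286 ± 90.1 CPM. These sums are dominated by the rows with the most counts and were not tested.

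**Figure D1:**
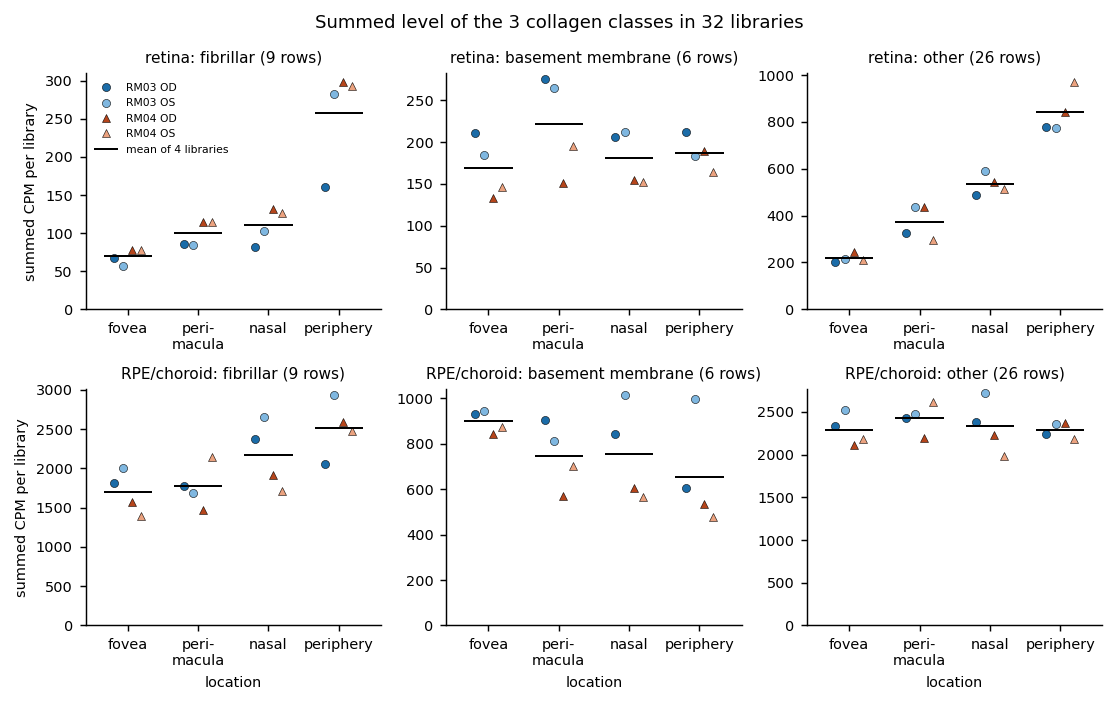
Summed CPM of the fibrillar, basement membrane and other collagen rows in each library (vertical axis, linear from 0) by location (horizontal axis), with the retina in the upper and RPE/choroid in the lower panels. Points are libraries coloured by eye and lines are means of 4 libraries; in the retina the other collagens stood at 203 to 244 CPM at the fovea and at 776 to 969 CPM at the periphery.

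Between fovea and periphery of the retina, 30 of the 40 tested collagen rows passed an adjusted p of 0.05, against 67.0% of all 15380 genes tested. Only 7 were higher at the fovea and 23 were lower there, where 31% and 36% of all genes were. The median log2 fold change of the 40 rows (fovea over periphery, so that a negative value means more at the periphery) was -0.73, beside -0.06 over all genes tested. By class, 6 of 9 fibrillar, 4 of 6 basement membrane and 13 of 25 tested other collagens were lower at the fovea. In RPE/choroid 20 of 39 tested rows passed, against 44.1% of all genes, with 10 higher at the fovea (21.2% of all genes) and 10 lower (22.9%). By class, 6 of the 7 fibrillar rows that passed were lower at the fovea, and all 3 basement membrane rows that passed were higher. Without the 2 libraries highest in Schwann cell markers the RPE/choroid count was again 20, of which 17 were among the first 20: COL5A2, COL5A3 and COL21A1 were lost and COL4A2, COL22A1 and COL25A1 gained. Without the 4 highest it was 21, with 16 of the first 20. COL4A3, COL6A1, COL17A1 and COL21A1 were lost, and COL4A2, COL4A4, COL18A1, COL22A1 and COL25A1 gained. COL4A4 was then lower at the fovea (-0.66, adjusted p = 0.0484), unlike the other basement membrane rows that passed. COL13A1 in the retina, and COL6A5 and COL6A6 in RPE/choroid, had too few counts to be tested.

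The difference between the tissues was itself tested, as an interaction between tissue and location. It passed for 17 of 41 rows, against 40.2% of all 16284 genes tested, and in 15 of the 17 (21.2% of all genes) the fovea-over-periphery ratio was smaller in the retina than in RPE/choroid. Against the nasal location it passed for 15 rows (23.5% of all genes), 14 of them in that same direction (12.5%), but for 9 rows without replicate 1.

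**Figure D2:**
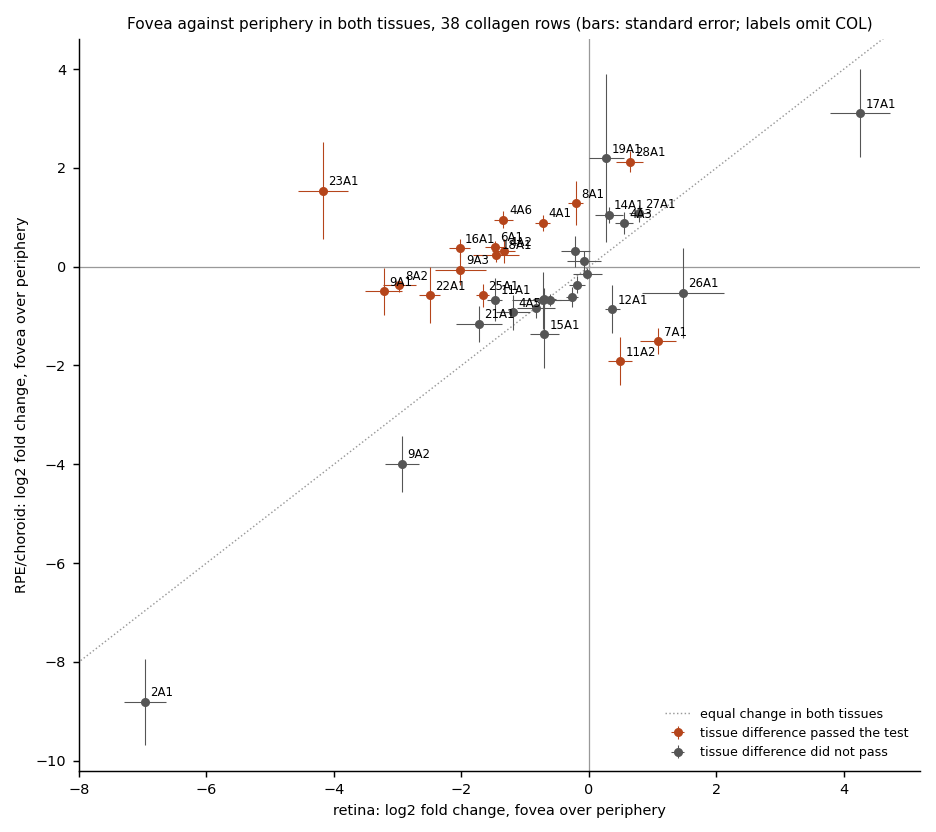
Log2 fold change of fovea over periphery in the retina (horizontal axis) and in RPE/choroid (vertical axis) for the 38 collagen rows tested in both tissues, with standard errors as bars and rows whose tissue difference passed the test in orange. COL2A1, at -6.96 and -8.81, lies far out toward the periphery in both tissues, and COL17A1, at 4.25 and 3.11, toward the fovea.

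Of the tested collagen rows of the retina, COL2A1 had the largest fold change between fovea and periphery. It encodes the only chain of type II collagen, the main fibril of the vitreous, and is mutated in Stickler syndrome. In the retina it stood at 1.09, 0.696, 1.696 and 1.24 CPM at the fovea, 1.24, 1.53, 2.91 and 2.06 CPM in the perimacula, 2.49, 2.49, 3.17 and 3.81 CPM at the nasal location and 73.6, 193, 166 and 164 CPM at the periphery of replicates 1 to 4. Every peripheral library was above every other retinal library, a 125-fold difference from the fovea (log2 fold change -6.96, SE 0.33, adjusted p = 4.54e-08). Fovea over nasal gave -1.32, SE 0.27, adjusted p = 0.000931, and nasal over periphery gave -5.64, SE 0.27, adjusted p = 3.45e-09. The nasal location and the periphery also differ in flow cell. The study's peripheral punches were temporal, and the labels give no distances between punches. In RPE/choroid COL2A1 had 0 to 3 estimated counts per library at the fovea, 6 in all, and 168 to 1867 at the periphery, 4180 in all. The peripheral level there was 19.4, 2.704, 11.8 and 25.5 CPM and the difference from the fovea passed (adjusted p = 2.71e-05); the ratio of the summed counts, corrected for library totals, was 530.4 (95% interval 243 to 1446, exact, for counting error only). The lowest of the 4 peripheral values belonged to replicate 2.

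Rod transcripts were present in RPE/choroid libraries too. Per 1000 CPM of summed rod markers COL2A1 reached 20.98, 21.4, 55.3 and 36.9 CPM in peripheral RPE/choroid, above the 2.91, 6.89, 6.93 and 6.60 CPM of peripheral retina. The cartilage and vitreous matrix markers (9 of 11 with a row) summed to 14.5 to 22.2 CPM in foveal and 43.2 to 92.7 CPM in peripheral retina, and to 31.5 to 169.7 and 20.6 to 215 CPM in RPE/choroid. In the retina most of this sum was CNMD (chondromodulin), at 14.9 and 63.3 CPM on average, EPYC was at 0 in all 4 foveal libraries, and the aggrecan gene ACAN averaged 0.0406 CPM at the fovea and 0.223 CPM at the periphery. The part of vitreous, rods or any other tissue in the COL2A1 level was not tested.

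Type IX collagen lies along type II fibrils and is built from the products of COL9A1, COL9A2 and COL9A3. All 3 rose from fovea to periphery in the retina. COL9A1 went from 5.004, 2.44, 2.83 and 3.91 CPM to 51.2, 45.2, 26.6 and 21.3 CPM (log2 fold change -3.22, SE 0.29, adjusted p = 1.49e-06). COL9A2 went from 27.3, 33.4, 26.3 and 26.7 CPM to 188, 197, 230.3 and 284 CPM (-2.93, SE 0.27, adjusted p = 1.66e-06) and COL9A3 from 5.09, 8.32, 10.3 and 9.96 CPM to 27.1, 14.4, 35.8 and 71.2 CPM (-2.02, SE 0.39, adjusted p = 0.000693). None of the 3 overlapped between these groups. They were also higher in nasal than in foveal retina, as COL9A1 averaged 17.1 ± 5.18 CPM (fovea over nasal -2.18, SE 0.26, adjusted p = 7.75e-06) and COL9A2 averaged 107 ± 8.37 CPM (-1.87, SE 0.24, adjusted p = 1.57e-05). COL9A3 passed there as well (adjusted p = 0.0138), but not without replicate 1 (0.136).

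In RPE/choroid the type IX chains parted. COL9A2 rose from 4.56, 4.88, 47.2 and 53.6 CPM at the fovea to 276, 117, 254 and 324 CPM at the periphery (log2 fold change -3.99, SE 0.56, adjusted p = 0.000255), with the foveal libraries of RM03 far under those of RM04. COL9A1 stood at 14.1, 12.5, 18.7 and 11.5 CPM at the fovea and 39.7, 24.997, 12.99 and 6.93 CPM at the periphery and COL9A3 at 52.9, 38.3, 76.1 and 90.6 CPM at the fovea and 93.4, 32.2, 53.4 and 74.4 CPM at the periphery, with overlapping groups and no call. For both the tissue difference passed: COL9A1 differed by -2.80, SE 0.58, adjusted p = 0.000675 and COL9A3 by -1.97, SE 0.54, adjusted p = 0.00622, although COL9A3 missed without replicate 3 (0.0616).

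Type XI collagen sits at the core of type II fibrils, and its chains went different ways. COL11A1 in the retina was 15.9, 14.3, 12.5 and 13.1 CPM at the fovea and already 35.5, 33.01, 33.4 and 34.1 CPM in the perimacula, 31.7, 42.1, 40.98 and 42.3 CPM at the nasal location and 31.8, 44.3, 44.1 and 40.7 CPM at the periphery. The foveal libraries lay under all 12 others (fovea over periphery -1.48, SE 0.12, adjusted p = 6.07e-07), whereas nasal and peripheral libraries overlapped. COL11A2 did not share this rise. It was 8.06, 6.197, 9.36 and 7.94 CPM at the foveal and 5.04, 3.53, 8.43 and 7.51 CPM at the peripheral retina, slightly higher at the fovea (0.49, SE 0.19, adjusted p = 0.039), a call lost with the eye as block (0.0583) and without replicate 1, 2 or 3 (0.0911, 0.16 and 0.0777). In RPE/choroid it went the other way, from 8.57, 9.88, 8.55 and 6.94 CPM to 40.4, 90.4, 15.003 and 16.3 CPM (-1.91, SE 0.49, adjusted p = 0.00936). The peripheral values of RM03 (replicates 1 and 2), and 38.4 CPM in perimacula replicate 1, came from the 3 libraries with the highest Schwann cell marker sums, whose part was not tested. Without the 2 highest the difference was -1.503 (adjusted p = 0.00285), and without the 4 highest, which leaves the peripheral values of RM04, it was -1.06 (adjusted p = 0.00368).

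**Figure D3:**
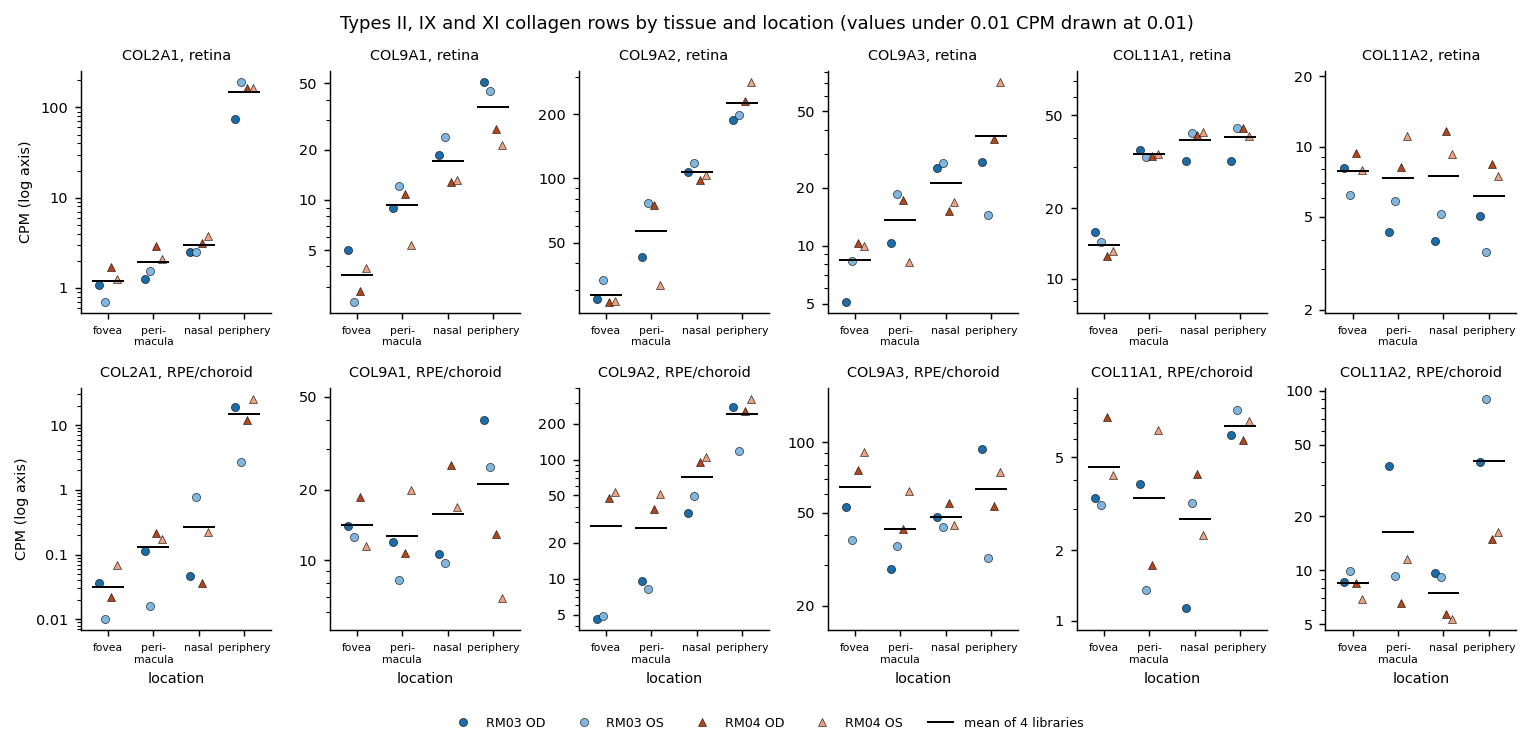
CPM of the type II, IX and XI collagen rows in each library (vertical axes, logarithmic, with their own range in each panel) by location, for the retina above and RPE/choroid below; circles are RM03, triangles RM04 and lines the means of 4 libraries. COL2A1 is low in the retina at the fovea, perimacula and nasal location, at most 3.81 CPM, and at 73.6 CPM or more at the periphery, whereas COL9A1 and COL9A2 climb on average over all 4 locations as drawn.

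Several other collagens formed a gradient across the retina. COL16A1, a fibril-associated collagen of many connective tissues, rose from 47.7, 60.6, 89.3 and 67.3 CPM at the fovea to 279.9, 276, 253 and 300.1 CPM at the periphery (log2 fold change -2.03, SE 0.16, adjusted p = 6.72e-07), passing through 132 ± 22.8 CPM in perimacular and 177 ± 20.1 CPM in nasal retina. COL22A1, best known from the junction of muscle and tendon, went from 12.9, 14.5, 31.3 and 26.5 CPM to 95.9, 96.4, 153 and 135 CPM (-2.50, SE 0.16, adjusted p = 1.8e-07). COL25A1, a membrane collagen of neurons, went from 10.1, 8.55, 7.41 and 7.41 CPM to 27.7, 25.96, 27.6 and 27.96 CPM (-1.67, SE 0.11, adjusted p = 1.43e-07). All 3 also passed against the nasal location, at -1.39, -2.05 and -1.12 on the log2 scale. None of their foveal libraries reached the nasal or peripheral range.

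At lower levels the same held for COL23A1, another membrane collagen, at 0.164, 0.244, 0.576 and 0.398 CPM at the fovea and 5.15, 6.19, 6.44 and 8.302 CPM at the periphery (log2 fold change -4.18, SE 0.39, adjusted p = 1.98e-06). COL8A2, a chain of the hexagonal network of Descemet's membrane, was 0.492, 0.592, 0.824 and 0.928 CPM at the fovea and 2.94, 6.03, 6.296 and 7.77 CPM at the periphery (-2.97, SE 0.26, adjusted p = 1.04e-06). Its partner COL8A1 did not follow: 10.2, 10.3, 8.96 and 8.27 CPM at the fovea and 11.002, 12.5, 10.5 and 11.03 CPM at the periphery gave -0.21, SE 0.12, adjusted p = 0.134, with a dip at the perimacula to 4.62, 6.35, 4.03 and 4.65 CPM that passed against the fovea (1.00, SE 0.12, adjusted p = 0.000133). COL18A1, the source of endostatin, was 16.3, 15.6, 7.12 and 7.44 CPM at the fovea and 22.5, 23.6, 35.4 and 41.8 CPM at the periphery (-1.46, SE 0.36, adjusted p = 0.00318). COL21A1 was 1.21, 0.9399, 0.461 and 0.5304 CPM at the fovea and 1.96, 1.88, 3.97 and 3.098 CPM at the periphery (-1.73, SE 0.37, adjusted p = 0.00129), and at the nasal location 0.859, 0.586, 0.866 and 0.427 CPM, overlapping the fovea.

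Among the type VI chains, which assemble into beaded filaments, COL6A1 rose from 2.48, 2.84, 4.68 and 4.94 CPM at the fovea to 8.85, 10.1, 10.3 and 12.5 CPM at the periphery (log2 fold change -1.47, SE 0.16, adjusted p = 6.56e-06) and 9.205, 12.3, 13.5 and 12.1 CPM at the nasal location (-1.66, SE 0.16, adjusted p = 1.18e-06). COL6A2, its neighbour on the chromosome, was 2.93, 4.09, 8.52 and 9.63 CPM at the fovea and 5.04, 3.51, 7.42 and 9.74 CPM at the periphery and did not pass (-0.03, SE 0.22, adjusted p = 0.923). COL6A5 differed between the animals. It stood at 0.533, 0.209, 0 and 0.0829 CPM at the fovea, 5.17, 5.43, 0.131 and 0.0184 CPM in the perimacula, 6.199, 9.43, 0.119 and 0.265 CPM at the nasal location and 6.48, 17.1, 1.57 and 1.71 CPM at the periphery. Outside the fovea it was far higher in RM03 than in RM04, where it stayed at or under 0.265 CPM at the fovea, perimacula and nasal location. The call of fovea against periphery passed (-5.35, SE 0.77, adjusted p = 6.24e-05), from 0 to 26 estimated counts per foveal library.

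The retinal fovea was the higher side for 7 rows. COL17A1, the collagen of hemidesmosomes that anchor epithelia, had 3.51, 3.92, 2.96 and 2.82 CPM at the fovea, against 0.431, 0.146, 0.458 and 0.8295 CPM in perimacular retina, 0.137, 0.179, 0.272 and 0.309 CPM at the nasal location and 0.188, 0.0583, 0.338 and 0.166 CPM at the periphery. The foveal libraries stood above all others (fovea over periphery 4.25, SE 0.46, adjusted p = 6.73e-06, over nasal 3.99, SE 0.42, adjusted p = 2.53e-06). It was also higher at the fovea of RPE/choroid, at 0.465, 0.178, 0.507 and 0.699 against 0, 0.0805, 0 and 0.123 CPM, from 8 to 30 and 0 to 9 estimated counts (3.11, SE 0.89, adjusted p = 0.0159), a call lost without replicate 1, 3 or 4 (0.0749, 0.0519 and 0.0541) and without the 4 libraries highest in Schwann cell markers (0.0763). COL7A1, the chain of anchoring fibrils, was 8.49, 7.398, 7.76 and 5.95 CPM at the foveal and 5.09, 1.69, 3.77 and 3.93 CPM at the peripheral retina (1.09, SE 0.28, adjusted p = 0.00469). COL27A1 averaged 6.91 ± 1.04 and 4.33 ± 1.78 CPM (0.79, SE 0.16, adjusted p = 0.000945). COL12A1 and COL28A1 passed at 0.37 and 0.64, which did not hold without replicate 3 (0.0876 and 0.0925). The remaining members of this group were COL4A3 and COL11A2. Against the nasal location only COL17A1 and COL4A3 were higher at the fovea.

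Basement membrane chains pair in fixed ways, COL4A1 with COL4A2 in nearly every basement membrane, and COL4A3, COL4A4 and COL4A5 in the network that is defective in Alport syndrome. COL4A1 in the retina was 9.7004, 8.16, 7.91 and 7.99 CPM at the fovea, 13.3 ± 1.94 CPM in the perimacula, 15.7 ± 2.43 CPM at the nasal location and 14.8, 12.9, 16.4 and 13.5 CPM at the periphery, lower at the fovea in all 4 eyes (log2 fold change -0.72, SE 0.12, adjusted p = 0.000163). COL4A2 was 15.9, 16.8, 15.6 and 15.02 CPM at the fovea and 37.5, 27.3, 54.5 and 49.8 CPM at the periphery (-1.34, SE 0.19, adjusted p = 5.09e-05), and 41.4 ± 3.57 CPM at the nasal location (-1.34, SE 0.18, adjusted p = 1.83e-05). COL4A6 was 1.83, 1.845, 2.504 and 1.86 CPM at the fovea and 5.76, 4.79, 5.499 and 5.05 CPM at the periphery (-1.34, SE 0.14, adjusted p = 5.72e-06). COL4A5 was 21.9, 10.3, 7.198 and 7.59 CPM at the fovea and 24.1, 28.3, 27.3 and 22.2 CPM at the periphery (-1.19, SE 0.26, adjusted p = 0.00176), with foveal replicate 1 far above the other foveal libraries. All 4 were lower at the fovea.

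COL4A3 ran the other way in the same retinal libraries, at 148, 134, 84.1 and 98.4 CPM at the fovea, 191, 170.4, 76.2 and 122 CPM in the perimacula, 114, 118, 60.1 and 53.6 CPM at the nasal location and 109.9, 92.1, 67.9 and 60.7 CPM at the periphery. The fovea was higher than the periphery (0.55, SE 0.14, adjusted p = 0.00368) and the nasal location (0.51, SE 0.13, adjusted p = 0.00374) in all 4 eyes, although the groups overlapped, as RM03 was above RM04 at every location, and both calls were lost without the animal as covariate (0.12 and 0.262). COL4A4, which lies next to COL4A3 on the chromosome, was 13.6 to 15.98 CPM at the fovea and 13.1 to 19.6 CPM at the periphery and did not pass.

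In RPE/choroid COL4A1 was highest at the fovea, at 297, 309, 337 and 338 CPM against 147, 252, 149 and 148 CPM at the periphery, without overlap (log2 fold change 0.89, SE 0.16, adjusted p = 0.0012). COL4A6 had 19.4, 18.1, 10.8 and 13.6 CPM at the fovea and 6.93, 10.2, 6.32 and 7.999 CPM at the periphery (0.95, SE 0.18, adjusted p = 0.00152) and COL4A3 had 269, 232, 164 and 187 CPM at the fovea and 158, 81.3, 101 and 109.7 CPM at the periphery (0.88, SE 0.23, adjusted p = 0.00909), a call lost without the 4 libraries highest in Schwann cell markers (0.0555). COL4A1 and COL4A6 were higher at the fovea of RPE/choroid and lower at the fovea of the retina, and the tissue difference passed for both (-1.64, adjusted p = 2.51e-06, and -2.32, adjusted p = 6.64e-07). COL4A2 at 246, 292, 276 and 293 CPM at the fovea and 185, 402, 178 and 158 CPM at the periphery did not pass (0.31, SE 0.24, adjusted p = 0.311). Its peripheral replicate 2, highest of all in Schwann cell markers, stood far above the other peripheral values. Without the 2 libraries highest in these markers the difference was 0.65 (adjusted p = 0.00186), and without the 4 highest it was 0.69 (adjusted p = 0.00799). The tissue difference of COL4A2 passed with them (-1.67, adjusted p = 0.000763). Smooth muscle and pericyte markers (7 of 7 with a row), whose cells are clothed in basement membrane, summed to 6143 to 9369 CPM at the fovea and 1161 to 2619 CPM at the periphery of RPE/choroid, and endothelial markers (7 of 7) to 1733 to 2635 and 1144 to 1473 CPM. No marker of either list was at 0 in any of these libraries, and their part in the type IV levels was not tested.

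**Figure D4:**
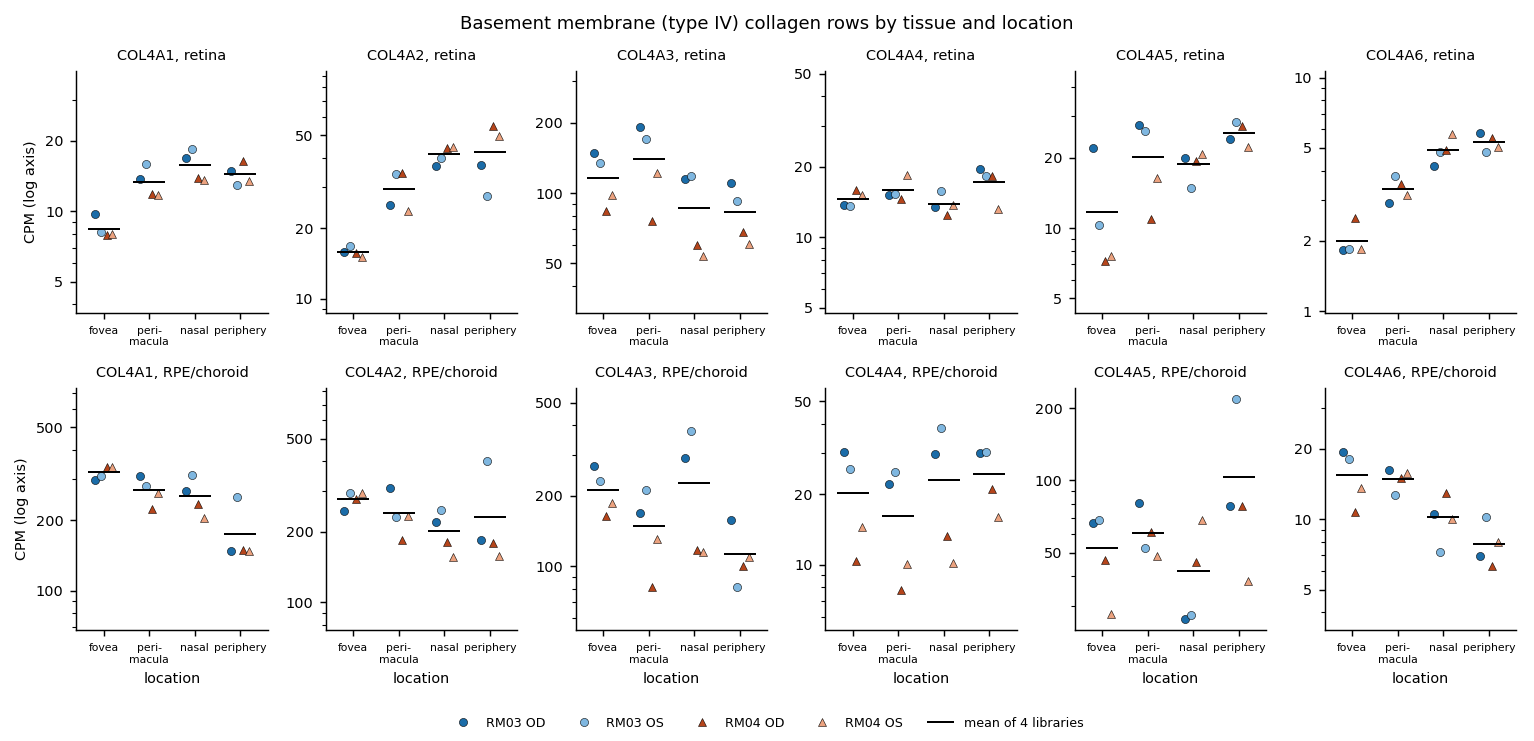
CPM of the 6 type IV rows in each library (vertical axes, logarithmic, own range in each panel) by location, retina above and RPE/choroid below, with circles for RM03, triangles for RM04 and lines for means of 4 libraries. In the retina COL4A1 is lowest at the fovea, on average 8.44 CPM against 14.4 CPM at the periphery, and in RPE/choroid it is highest there, at 320.3 against 174 CPM.

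Of the fibrillar rows of RPE/choroid that passed, all but COL27A1 were higher at the periphery. COL1A2, a chain of type I collagen, was 1044, 1103, 663 and 652 CPM at the fovea and 1216, 1654, 1236 and 1239 CPM at the periphery (log2 fold change -0.67, SE 0.12, adjusted p = 0.00127). The other chain of type I collagen, COL1A1, at 316, 417, 355 and 285 CPM at the fovea and 247, 341, 389 and 300.1 CPM at the periphery, did not pass (0.11, SE 0.22, adjusted p = 0.705). COL3A1, abundant in vessel walls, was 298, 334, 417 and 330.1 CPM at the fovea and 409, 606, 759.6 and 738 CPM at the periphery (-0.84, SE 0.19, adjusted p = 0.00514), higher at the periphery in every eye. COL5A2 and COL5A3, of a type that limits fibril width, passed with -0.62 and -0.66, but not with the eye as block (0.0565 and 0.0576) or without the 2 libraries highest in Schwann cell markers (0.0554 and 0.0888), although they passed without the 4 highest (0.0104 and 0.0244). Leaving out single eyes also lost COL5A2 (without replicate 2, 3 or 4, at 0.127, 0.0801 and 0.0992) and COL5A3 (without replicate 3 or 4, at 0.103 and 0.0938). Fibroblast markers (7 of 7 with a row) summed to 1979.9 to 4679.8 CPM at the fovea and 6904 to 13838 CPM at the periphery, but the list did not move as 1. The sum followed DCN, on average 1329 and 5343 CPM, and APOD, on average 1262 and 3767 CPM, and LUM and FBLN1 also averaged more at the periphery. MFAP4 averaged 151 and 98.03 CPM, PDGFRA 138 and 131 CPM and DPT 99.5 and 102 CPM. None was at 0 in any of these libraries, and their part in the fibrillar levels was not tested.

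The fibrillar COL27A1 was the exception, at 39.9, 49.3, 20.8 and 27.6 CPM at the foveal and 13.3, 20.1, 15.4 and 13.2 CPM at the peripheral RPE/choroid (log2 fold change 1.08, SE 0.17, adjusted p = 0.00048). The same test found 5 further rows outside the fibrillar and type IV classes, besides COL17A1, higher at the fovea than the periphery. Not all rows higher at the fovea in this test had their highest mean there. That of COL27A1 (39.6 CPM), COL28A1 (37.4 CPM) and COL6A1 (534.8 CPM) lay at the perimacula. COL14A1 (240.3 CPM) and COL4A3 (225.9 CPM) had theirs at the nasal location. COL28A1, a collagen of peripheral nerve, had 28.1, 36.1, 32.9 and 41.7 CPM at the fovea, 20.01, 13.7, 31.7 and 26.6 CPM at the nasal location and 4.38, 8.05, 10.8 and 9.24 CPM at the periphery (2.13, SE 0.21, adjusted p = 2.53e-05), while the Schwann cell marker sum went the other way, with 274 to 332 CPM at the fovea and 545 to 12598 CPM at the periphery. COL13A1, a membrane collagen of the neuromuscular junction, had 18.8, 22.01, 9.89 and 13.3 CPM at the fovea and 4.01, 4.09, 6.999 and 6.29 CPM at the periphery (1.56, SE 0.27, adjusted p = 0.000889), and 0.93 (adjusted p = 0.0188) without the 4 libraries highest in Schwann cell markers. COL14A1, which binds type I fibrils, had 259.9, 264, 102 and 105 CPM at the fovea and 89.3, 165, 50.4 and 47.7 CPM at the periphery, higher at the fovea in all 4 eyes (1.05, SE 0.16, adjusted p = 0.000462) but with overlapping groups, and without the animal as covariate it missed (0.153). Within each animal the groups were apart.

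COL8A1, a component of Bruch's membrane, stood at 151, 129.6, 162 and 178 CPM at the foveal and 101, 18.9, 42.5 and 89.3 CPM at the peripheral RPE/choroid (log2 fold change 1.29, SE 0.44, adjusted p = 0.0349). The groups did not overlap, but the call was lost without replicate 3 or 4 (0.122 and 0.0762). COL8A2 was 304, 316, 169.98 and 211 CPM at the fovea and 332, 327, 309 and 288 CPM at the periphery, slightly higher at the periphery (-0.38, SE 0.13, adjusted p = 0.0339), a call lost with the eye as block (0.0543) and without replicate 1, 3 or 4 (0.0537, 0.228 and 0.152). COL6A1 was 436, 513, 441 and 434 CPM at the fovea and 288, 358, 408 and 325 CPM at the periphery (0.40, SE 0.11, adjusted p = 0.0138), and lost its call without replicate 1 (0.0584) or without those 4 libraries (0.12). COL6A2 at 547, 643, 598 and 572 CPM at the fovea and 533, 662, 783 and 619 CPM at the periphery did not pass (-0.14, SE 0.12, adjusted p = 0.371). Higher at the periphery were COL7A1, at 3.85, 3.23, 0.991 and 1.51 CPM at the fovea and 6.95, 15.4, 3.23 and 3.05 CPM at the periphery (-1.51, SE 0.26, adjusted p = 0.00083, and 0.0614 without the animal as covariate), and COL21A1, at 7.35, 4.73, 21.6 and 18.4 CPM at the fovea and 21.2, 27.01, 22.4 and 22.3 CPM at the periphery. The COL21A1 difference of -1.15 (adjusted p = 0.0246) shrank to -0.65 without replicate 2 (0.103) and was also lost without replicate 1 (0.136) or without the 2 libraries highest in Schwann cell markers (0.0655). Without the 4 highest it was -0.10 (0.728). In RM04 the foveal values were close to the peripheral ones.

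For 10 of the 38 rows tested in both tissues (23.9% of all genes) the tissue difference passed with estimates of opposite sign in the tissues. The 8 rows with more at the retinal periphery and at the RPE/choroid fovea (12.2% of all genes) were COL4A1, COL4A2, COL4A6, COL6A1, COL8A1, COL16A1, COL18A1 and COL23A1. Only COL4A1, COL4A6 and COL6A1 of these passed in each tissue on its own. COL6A1 differed by -1.89, SE 0.21, adjusted p = 1.19e-06 and COL16A1 by -2.44, SE 0.40, adjusted p = 7.01e-05. Without the 4 libraries highest in Schwann cell markers the RPE/choroid estimate of COL16A1 was -0.01 (adjusted p = 0.955). Its sign was then no longer opposite to the retina, while its tissue difference still passed (-2.50, adjusted p = 0.000994). COL23A1 had the largest difference, -6.06, SE 1.17, adjusted p = 0.000363, with 4.71, 3.2997, 0.617 and 1.09 CPM at the foveal and 0.727, 0, 1.09 and 0.369 CPM at the peripheral RPE/choroid, where 1 library had no count. The reverse, more at the retinal fovea and at the RPE/choroid periphery (11.7% of all genes), held for COL7A1 (2.55, SE 0.58, adjusted p = 0.00164) and COL11A2 (2.55, SE 0.75, adjusted p = 0.0104, lost without replicate 2 at 0.0763, and 1.13 without the 4 libraries highest in Schwann cell markers). COL8A1 and COL18A1 lost the call without replicate 3 (0.104 and 0.0657).

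The remaining pairs of locations separated differently in each tissue. In the retina 17 of 40 rows passed between fovea and perimacula (35.2% of all genes), 15 of them lower at the fovea (16.2%), and 23 passed between fovea and nasal location (52.2%), 21 of them lower at the fovea (27.2%). Between perimacula and nasal location 3 passed (1.49%): COL4A3 was higher at the perimacula, and COL6A1 and COL8A1 were higher at the nasal location, but only 0 to 1 rows passed when single replicates were left out, and 7 passed with DESeq2. Between perimacula and periphery 21 passed (50.3%), 17 of them lower at the perimacula (26.9%), and between nasal location and periphery 18 passed (48.7%), 14 of them lower at the nasal location (24.2%). The mean was lowest at the fovea for 23 of the 41 rows of the retina and highest at the periphery for 25. The shares of all genes with these orders are not given, so these counts only describe the rows.

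In RPE/choroid no collagen row passed edgeR's test between fovea and perimacula (0.0447% of all genes, 0.0191% higher and 0.0255% lower at the fovea), with 3 rows at an unadjusted p under 0.05. None passed between fovea and nasal location (0.361%), where 10 rows had such a p and DESeq2 called only COL9A2 (adjusted p = 0.00975). None passed between perimacula and nasal location (3.07%), where 7 rows had an unadjusted p under 0.05 and DESeq2 called 3. Without the 4 libraries highest in Schwann cell markers COL9A2 passed in the former, and COL1A1 and COL3A1 in the latter. Shares of all genes are given for edgeR's adjusted p only. The counts by unadjusted p, by DESeq2 or without libraries therefore cannot be compared with all genes. Against the periphery 15 rows passed from the perimacula (34.9%) and 17 from the nasal location (44.6%). Of the latter, 9 were higher in nasal punches (21.8%) and 8 in peripheral ones (22.8%). The nasal count was 11 without replicate 1, and also 11 with no covariate. Without the 4 libraries highest in Schwann cell markers it was 13, of which 9 were among the 17. The mean was highest at the fovea for 9 of the 41 rows of RPE/choroid and at the periphery for 18. It was lowest at the periphery for 15. For these orders too the shares of all genes are not given.

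Most collagens were higher in RPE/choroid than in retina at each location. At the fovea 34 of 41 rows passed (74.6% of all genes), 29 of them higher in RPE/choroid (36.8%). The corresponding counts were 31 and 25 at the perimacula (75.6% and 37.8%), 34 and 26 at the periphery (74.3% and 37.1%, with 37.2% higher in retina), and 31 and 25 at the nasal location (76.2% and 38.6%). The median log2 ratio of retina over RPE/choroid was -2.27 at the fovea, beside 0.04 over all genes tested. COL1A2, at 1.33 to 1.89 CPM in the foveal retina and 652 to 1103 CPM in foveal RPE/choroid, had a ratio of -9.02 (SE 0.20, adjusted p = 3.64e-18). COL1A1 and COL3A1 had -9.02 and -9.53. COL13A1 had 0 to 13 estimated counts in any retinal library and 254 to 1048 in any RPE/choroid library.

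Higher in the retina at all 4 locations were COL2A1, COL11A1 and COL22A1. COL11A1 stood at 31.8 to 44.3 CPM in peripheral retina and 5.91 to 7.9996 CPM in peripheral RPE/choroid (log2 fold change 2.55, SE 0.35, adjusted p = 1.29e-06), and COL22A1 at 95.9 to 153 and 1.74 to 20.9 CPM (3.45, SE 0.48, adjusted p = 1.71e-06). At the fovea the COL22A1 call was lost without replicate 3 (0.111). COL19A1, a fibril-associated collagen that neurons make, was higher in the retina at the perimacula, nasal location and periphery, with adjusted p = 0.002, 9.72e-06 and 0.000508. At the fovea it missed (adjusted p = 0.0584), with 7.53, 5.45, 5.68 and 5.59 CPM in retina and 7.71, 0.446, 0 and 0.0466 CPM in RPE/choroid, where replicate 1 stood alone and without it the adjusted p was 0.00019. COL16A1 changed sides: RPE/choroid was higher at the fovea (-1.31, SE 0.28, adjusted p = 0.000333) and the retina at the periphery (1.13, SE 0.28, adjusted p = 0.00113). COL23A1 did the same, at -2.53 (adjusted p = 0.01, lost without replicate 1 at 0.146) and 3.53 (adjusted p = 0.000621).

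Ratios between chains of 1 collagen type were compared as well. The log2 ratio of COL6A1 to COL6A2 in the retina averaged -0.65 at the fovea, 0.78 in nasal and 0.79 in peripheral punches, and in RPE/choroid it averaged -0.37 in foveal and in nasal punches and -0.91 in peripheral ones. COL4A1 to COL4A2 averaged -0.91 at the retinal fovea and -1.51 at the periphery, and 0.21 and -0.34 in RPE/choroid, in the same direction in both tissues and all 4 eyes. COL11A1 to COL11A2 averaged 0.83 at the retinal fovea, 2.51 in nasal and 2.78 in peripheral punches. Each of these fovea-to-periphery differences left the groups without overlap. Both groups come from the same 4 eyes, and an exact two-sided permutation within eyes gave p = 0.125, the smallest that 4 eyes allow. A permutation that ignores the eyes gave an exact p of 0.0286. Over the 44 ratios compared (11 pairs, 2 tissues, 2 contrasts) the Benjamini-Hochberg adjusted value of the latter was 0.0739, so that no ratio passed under either. Ratios set aside gene length only as a constant and say nothing of absolute proportions.

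For a few rows all libraries of RM03 lay above those of RM04. In RPE/choroid COL16A1 was 137 to 306 CPM in the 8 libraries of RM03 and 71.0 to 128 CPM in the 8 of RM04. COL4A4 was 22.1 to 38.4 CPM and 7.79 to 21.2 CPM, and COL7A1 was just apart, at 3.23 CPM or more in RM03 and at most that in RM04. These 3 of 39 tested rows did not overlap, where 5.09% of all tested genes did not. In the retina only COL12A1 was apart, at 22.6 to 32.3 CPM in RM03 and 10.9 to 16.7 CPM in RM04 (1 of 40 rows, against 3.8% of all genes). Other differences held at the fovea, perimacula and nasal location and were smaller at the periphery: COL20A1 in RPE/choroid was 1.86, 3.61, 17.2 and 13.997 CPM at the fovea and 5.15, 9.995, 13.1 and 7.59 CPM at the periphery, and COL9A2 and COL21A1 were likewise lower in RM03 at the fovea. With 2 animals these are descriptions, and the individual and its handling cannot be told apart.

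**Figure D5:**
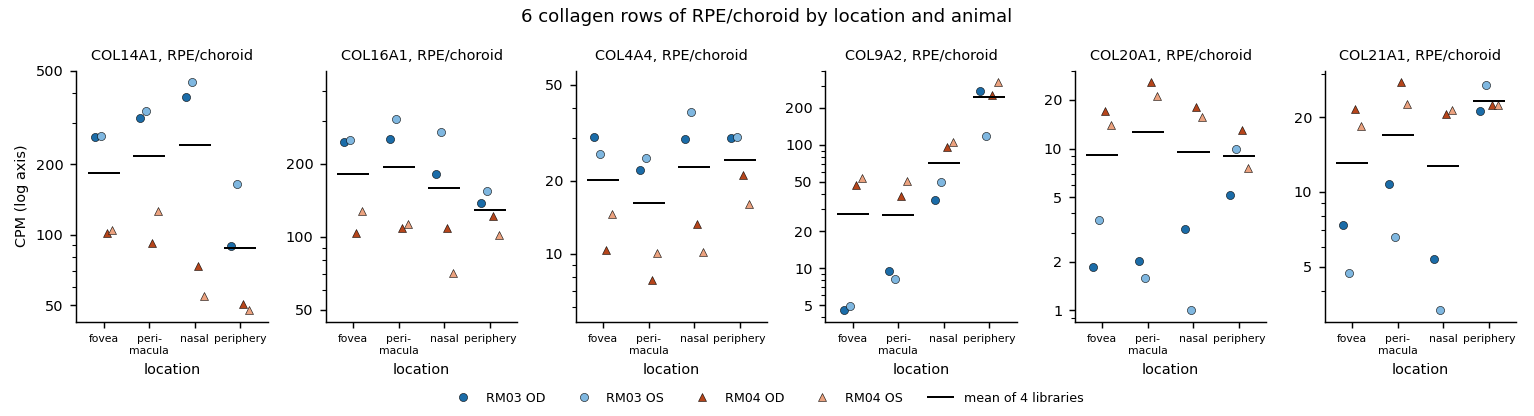
CPM of 6 collagen rows of RPE/choroid in each library (vertical axes, logarithmic, own range in each panel) by location, with circles for RM03 and triangles for RM04 and lines for the means of 4 libraries. COL14A1, COL16A1 and COL4A4 were higher in RM03 at the fovea, while COL9A2, COL20A1 and COL21A1 were higher in RM04 there.

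The genes that modify, secrete, cut, crosslink, bind and sense collagen were followed on 7 lists of 60 symbols, of which 54 had a row. In the retina 15 of 50 tested genes were higher at the fovea and 20 higher at the periphery, shares near the 31% and 36% of all genes. Of 7 tested leucine-rich proteoglycans that bind fibrils, 4 were higher at the periphery (36% of all genes were), 0 higher at the fovea (31%) and 3 did not pass. Among the 4 were FMOD, at 0.593 to 1.52 CPM in foveal and 23.9 to 45.1 CPM in peripheral retina (log2 fold change -4.79, adjusted p = 1.07e-07), and PRELP, at 22.8 to 30.5 CPM in foveal and 92.7 to 153 CPM in peripheral retina (log2 fold change -2.15, adjusted p = 1.71e-07). PXDN, the peroxidase that crosslinks type IV collagen, stood at 0.191 to 0.313 CPM in foveal and 6.05 to 10.5 CPM in peripheral retina (log2 fold change -4.98, adjusted p = 1.19e-06), and NID2, which links type IV collagen to laminin, at 0.818 to 1.24 CPM in foveal and 2.84 to 7.23 CPM in peripheral retina (log2 fold change -2.27, adjusted p = 1.86e-06). The procollagen proteinase genes TLL1 and BMP1 were higher at the fovea, TLL1 at 17.9 to 24.4 against 1.59 to 3.67 CPM (log2 fold change 3.04, adjusted p = 1.61e-06).

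In RPE/choroid 19 of 54 were higher at the fovea (21.2% of all genes were) and 11 at the periphery (22.9%). SERPINH1, the procollagen chaperone HSP47, was 420.4 to 662 CPM at the fovea and 240.4 to 359 CPM at the periphery (log2 fold change 0.88, adjusted p = 4.67e-05) and was lower at the fovea in retina (log2 fold change -1.07, adjusted p = 6.92e-06); it and LUM each have 2 rows, of which the row with more counts was used. LOXL1, a lysyl oxidase of fibrils, was 22.3 to 30.99 and 4.74 to 10.3 CPM (log2 fold change 1.76, adjusted p = 6e-05). Of the 8 collagen receptors 4 were higher at the fovea (21.2% of all genes) and 3 at the periphery (22.9%), and the integrin chain ITGA1 was 33.3 to 41.4 and 12.1 to 18.04 CPM (log2 fold change 1.45, adjusted p = 4.61e-06). Among fibril-binding proteoglycans the biglycan gene BGN was higher at the fovea, 1062 to 2036 against 365 to 489 CPM (log2 fold change 1.62, adjusted p = 1.59e-05), and DCN and LUM, which are also on the fibroblast list, were higher at the periphery (log2 fold change -2.07, adjusted p = 0.000907, and log2 fold change -2.32, adjusted p = 0.00598). Between fovea and nasal location of RPE/choroid only OGN of the 54 passed (log2 fold change -0.88, adjusted p = 0.0285).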

How the data were processed

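Per the submitters' notes and the study's methods, the authors quantified paired-end reads with Salmon 0.13 against the macaque build Mmul_8.0.1, imported them into genes with tximport and deposited estimated counts per gene and sequencing lane. The column is named TPM, but its lane sums differ as those of length-scaled estimated counts do. Whether counting used strand is not given in the sources used here. From these deposited estimated counts, 136 lanes were summed into 32 libraries and rounded to whole numbers. Rows were matched by symbol, and 40 of the 41 identifiers were also in a gene name table, with the same symbol. CPM used TMM factors over the 32 libraries. Tests were edgeR 4.0.16 quasi-likelihood tests (R 4.3.3) on all genes passing filterByExpr (minimum count 10), with the animal as covariate and Benjamini-Hochberg adjustment; 3 locations per tissue were fitted together, 4 for nasal contrasts, and both tissues for tissue contrasts and interactions. SE is the log2 fold change divided by the square root of F. DESeq2 1.42.0 was an alternative. The deposited values hold no gene lengths.

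The members and lists were chosen with earlier results of these data known. Named with values in every library were, per tissue, the 3 members of each class with the highest CPM, up to 12 members passing between fovea and periphery with a log2 fold change of at least 1 in size and a mean of at least 1 CPM, and members with opposite changes in the tissues; others were chosen after their values were seen. The chain ratios, the comparison of animals and the fits without libraries high in Schwann cell markers were added after seeing the data. Replicate numbers are eyes, so they pair samples of 1 eye: over the 1000 most variable genes, deviations from group means correlated between libraries of an eye, on average 0.60 in retina (0.08 to 0.87) and 0.46 in RPE/choroid (0.10 to 0.72). Correlations across the eyes of an animal are not given, so these values do not tell pairing by eye from pairing by animal. Eyes of 1 animal are not independent, yet the tests count them as replicates. The p-values set differences against the spread between these libraries. They do not cover how a location difference would vary over further animals. The tests were checked on simulated counts drawn independently, without an animal or eye effect, so the check does not cover correlation within eyes or animals. Counting intervals and library depth cover counting error only.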

Additional observations from a re-analysis of the deposited data

Results flagged for a closer look

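In 16 of 273 groups of 4 libraries, 1 library stood apart from the others by Dixon's criterion, and chance alone gives about 1 in 20. Each value is in CPM, with the range of the other 3 libraries. In RPE/choroid, periphery replicate 2 stood high for COL4A1 at 252 (147 to 149), COL4A2 at 402 (158 to 185), COL1A2 at 1654 (1216 to 1239) and COL12A1 at 135 (51.8 to 59.1). Perimacula replicate 1 stood high for COL11A2 at 38.4 (6.61 to 11.6). These are the 2 libraries with the highest Schwann cell marker sums, whose part in these values was not tested. Also high in RPE/choroid were COL1A1 in perimacula replicate 4 at 500.4 (251 to 278), COL6A1 in fovea replicate 2 at 513 (434 to 441) and COL19A1 in fovea replicate 1 at 7.71 (0 to 0.446).

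In the retina the foveal libraries that stood apart were replicate 1 for COL4A1 at 9.7004 (7.91 to 8.16) and COL19A1 at 7.53 (5.45 to 5.68), replicate 2 for COL9A2 at 33.4 (26.3 to 27.3) and replicate 3 for COL4A6 at 2.504 (1.83 to 1.86). At the nasal location replicate 1 was low for COL11A1 at 31.7 (40.98 to 42.3) and replicate 2 high for COL18A1 at 22.4 (17.3 to 18.1). At the periphery replicate 2 was high for COL19A1 at 9.48 (3.605 to 4.26) and low for COL25A1 at 25.96 (27.6 to 27.96).

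The tissues differed in the change between locations for the rows that passed the interaction test, given as the log2 fold change in retina minus that in RPE/choroid. Between fovea and periphery the difference was negative for COL4A1 (-1.64), COL4A2 (-1.67), COL4A6 (-2.32), COL6A1 (-1.89), COL8A1 (-1.51), COL8A2 (-2.64), COL9A1 (-2.80), COL9A3 (-1.97), COL13A1 (-3.05), COL16A1 (-2.44), COL18A1 (-1.66), COL22A1 (-2.01), COL23A1 (-6.06), COL25A1 (-1.15) and COL28A1 (-1.52). It was positive for COL7A1 (2.55) and COL11A2 (2.55). COL22A1 lost this call without replicate 1 or 2 (0.0831 and 0.0638), and COL13A1 rests on 0 to 13 estimated counts in any retinal library.

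Between fovea and nasal location the difference was negative for COL4A1 (-1.25), COL4A2 (-1.86), COL4A6 (-1.89), COL6A1 (-1.67), COL6A3 (-1.37), COL9A1 (-2.06), COL9A3 (-1.79), COL11A1 (-2.19), COL16A1 (-1.61), COL18A1 (-1.13), COL19A1 (-4.75), COL22A1 (-2.50), COL23A1 (-3.05) and COL25A1 (-0.81), and positive for COL17A1 (3.27). Without replicate 1 only 9 of these comparisons between fovea and nasal location passed.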

How the results depend on the processing

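With the eye as replicate block in place of the animal, which pairs the libraries of an eye, 29 retinal rows passed between fovea and periphery instead of 30 and 17 RPE/choroid rows instead of 20, all of them among the rows that passed without the block. The calls lost were COL11A2 in retina and COL5A2, COL5A3 and COL8A2 in RPE/choroid. Between perimacula and nasal location of the retina the count of 3 became 0 with no covariate, 7 with DESeq2 and 0 to 1 when single replicates were left out. In RPE/choroid, fovea against nasal location gave 1 row with the compared groups alone and 1 with DESeq2, and perimacula against nasal location gave 3 with each. Without the 4 libraries highest in Schwann cell markers, chosen after seeing the data, these comparisons gave 1 and 2 rows. Nasal location against periphery of RPE/choroid gave 11 instead of 17 with no covariate and 11 to 18 when single replicates were left out. Leaving out single replicates gave 11 to 16 rows between fovea and perimacula of the retina and 9 to 12 for the tissue difference against the nasal location. The lowest counts came without replicate 3 (11 rows) and without replicate 1 (9 rows). The basement membrane sum at the RPE/choroid fovea was 843.8 CPM with plain library totals, against 897.9 CPM with TMM. The causes were not tested, and shares of all genes are not given for these alternative counts. Over the alternatives, 349 other counts and class levels stayed within 1.5 times or the replicate spread. No count, class level or fold change chosen by the naming rule reversed. Other estimates, none of them passing, did change sign. In RPE/choroid, fovea over periphery, COL9A1 was -0.43 without the 2 libraries highest in Schwann cell markers and 0.64 without the 4 highest. In the same fits COL15A1 was -0.97 and 0.47, and COL16A1 was 0.29 and -0.01. Of the 32 fold changes chosen by the naming rule, 373 alternative values still passed and 14 did not; calls lost by other collagen rows are not in this number and stand beside those rows. Depth limits COL2A1 in RPE/choroid (0 to 3 estimated counts at the fovea), COL6A5 in retina (0 to 26 at the fovea) and COL17A1 in RPE/choroid (0 to 9 at the periphery).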
